A study of Mus musculus with 4 samples.

Results

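Of the 20727 distinct m6A peaks called in mouse splenic natural killer (NK) cells, 541 were assigned to long intergenic noncoding RNA (lincRNA) genes. A peak was taken as a member when the gene to which the authors assigned it has the type lincRNA in GENCODE release M21 for GRCm38. The members lay in 454 genes. The list came from methylated RNA immunoprecipitation sequencing (MeRIP-seq) with 2 m6A immunoprecipitates and 2 input RNA libraries of splenic NK cells from wild-type C57BL/6 mice. Both groups came from NK cells that had been expanded in the mice for 1 to 2 months with the pLIVE-IL-15 plasmid and then sorted by flow cytometry. Poly(A) RNA was fragmented before the pull-down. Mice of 6 to 10 weeks were used in general, with no separate age for these libraries, and whether a library pools animals is not given in the sources used here. All 9 NK markers examined, among them Ncr1, Klrb1c, Gzmb and Eomes, had a peak, as did 2 of 4 T cell, 2 of 4 B cell, 4 of 4 myeloid and 2 of 3 erythroid markers. A peak in the list says nothing of how abundant the transcript was.

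m6A is a methyl mark on adenosine that the METTL3 and METTL14 writer complex places on nascent transcripts, mostly within the DRACH context (D stands for any base but C, R for a purine and H for any base but G). Long noncoding RNAs carry it as well as mRNAs, and Malat1, Neat1 and Xist are among the noncoding RNAs on which it has been studied most. By its name a lincRNA gene lies between protein-coding genes. Of the 454 genes here, however, 9 overlapped a coding gene on the same strand and 42 on the other strand. A lincRNA transcript has no annotated coding sequence, so stop codons and untranslated regions offer no landmarks for where the mark lies.

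Each peak has a fold enrichment, the ratio of immunoprecipitate to input, and a log10 p from peak calling. The list gives 1 value of each per peak and names no library. How the 4 libraries were combined, and whether the list joins several calling runs, is not given in the sources used here, so no error between replicates can be given, and the depth of the libraries is unknown. Counts are given beside all peaks and beside other gene classes. Intervals are 95% Wilson intervals, which cover counting error over peaks only, and peaks of a gene are not independent.

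The sequences below come from 11 peaks named in the results, in GRCm38 and on the strand of the lincRNA gene, with DRACH matches in capitals. They show what lay under the narrow peaks of well-known lincRNAs and under the lincRNA peaks with extreme fold enrichment or p. The part of each of these peaks within exons of its assigned gene touched no exon of another annotated gene. The Malat1 peak filled chr19:5799316-5799496 on the minus strand, inside the only exon of the longest transcript. The Neat1 peak at the 5' end of the gene filled chr19:5845327-5845476 on the minus strand. The peak of 2900097C17Rik (the mouse Norad gene) filled chr2:156388065-156388335 on the minus strand, up to the 3' end of its only exon. The Lockd peak filled chr6:134951341-134951551 on the plus strand. For the other 7 the 150 nt with the most DRACH matches are shown, and the count of matches in them is therefore high by choice. These lay at chr2:119606979-119607128 (plus strand, 1700020I14Rik, the mouse Cyrano gene), chr12:25386497-25386646 (plus strand, Gm36723), chr19:11047689-11047838 (minus strand, AW112010), chr9:44580431-44580580 (plus strand, Gm47230), chr2:35505935-35506084 (plus strand, Gm35202), chr10:99222285-99222434 (minus strand, Gm34574) and chr9:89552027-89552176 (minus strand, Gm47403).
Malat1: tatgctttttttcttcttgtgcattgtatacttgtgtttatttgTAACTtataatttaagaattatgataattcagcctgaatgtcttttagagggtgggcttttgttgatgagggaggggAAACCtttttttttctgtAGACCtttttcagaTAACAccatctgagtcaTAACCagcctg
Neat1: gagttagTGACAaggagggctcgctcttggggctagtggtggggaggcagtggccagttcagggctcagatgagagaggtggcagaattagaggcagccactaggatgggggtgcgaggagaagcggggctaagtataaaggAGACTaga
2900097C17Rik: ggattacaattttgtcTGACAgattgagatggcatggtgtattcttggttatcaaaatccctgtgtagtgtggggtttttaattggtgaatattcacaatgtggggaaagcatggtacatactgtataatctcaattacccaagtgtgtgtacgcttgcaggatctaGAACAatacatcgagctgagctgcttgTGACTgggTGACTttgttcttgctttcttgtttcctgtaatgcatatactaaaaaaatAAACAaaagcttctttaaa
1700020I14Rik: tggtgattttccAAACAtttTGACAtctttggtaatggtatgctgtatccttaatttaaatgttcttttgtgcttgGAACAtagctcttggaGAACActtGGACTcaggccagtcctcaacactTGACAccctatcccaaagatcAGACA
Lockd: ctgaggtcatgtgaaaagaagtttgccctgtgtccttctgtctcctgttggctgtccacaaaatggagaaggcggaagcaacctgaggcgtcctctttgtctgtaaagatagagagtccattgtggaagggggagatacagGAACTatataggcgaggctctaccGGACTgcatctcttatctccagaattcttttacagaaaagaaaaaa
Gm36723: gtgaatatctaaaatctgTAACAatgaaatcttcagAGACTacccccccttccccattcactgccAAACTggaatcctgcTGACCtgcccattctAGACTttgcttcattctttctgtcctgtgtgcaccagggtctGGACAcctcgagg
AW112010: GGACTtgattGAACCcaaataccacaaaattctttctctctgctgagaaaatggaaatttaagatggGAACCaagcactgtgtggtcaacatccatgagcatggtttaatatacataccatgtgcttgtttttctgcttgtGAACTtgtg
Gm47230: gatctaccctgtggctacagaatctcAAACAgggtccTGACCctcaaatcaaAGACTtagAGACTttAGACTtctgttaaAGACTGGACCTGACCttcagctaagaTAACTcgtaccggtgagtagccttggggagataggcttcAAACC
Gm35202: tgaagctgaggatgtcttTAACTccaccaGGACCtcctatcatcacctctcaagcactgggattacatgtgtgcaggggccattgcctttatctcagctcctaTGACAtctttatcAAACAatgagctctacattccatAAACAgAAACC
Gm34574: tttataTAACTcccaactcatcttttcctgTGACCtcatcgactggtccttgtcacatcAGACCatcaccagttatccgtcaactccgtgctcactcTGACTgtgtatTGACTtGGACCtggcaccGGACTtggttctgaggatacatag
Gm47403: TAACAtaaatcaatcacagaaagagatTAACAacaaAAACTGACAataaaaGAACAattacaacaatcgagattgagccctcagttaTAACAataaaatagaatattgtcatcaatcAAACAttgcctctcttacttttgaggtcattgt
The 4 peaks shown whole held 5 DRACH matches in Malat1, 2 in Neat1, 5 in 2900097C17Rik and 2 in Lockd. Of these matches only 1, in Lockd, had the form GGACH. The densest windows held from 4 matches in AW112010 to 10 in Gm47230.

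Peaks on lincRNA genes had high fold enrichments. Of the 541 peaks, 382 had a fold enrichment of at least 5 (70.6%, interval 66.6 to 74.3), against 34.6% of all peaks in the list. The median was 11.4 (interquartile range 3.79 to 26.6), the lowest value 1.15 and the highest 368. The median of all peaks was 2.66 and that of the 18250 peaks on protein-coding genes 2.37 (1.68 to 6.64). Among protein-coding genes 29.5% of peaks reached 5-fold. The other noncoding classes were closer to the lincRNAs. Peaks on antisense RNA genes had a median of 7.59 with 57.9% at 5-fold or more, and peaks on pseudogenes 13.3 with 78.8%. Of the 380 peaks on TEC transcripts, which await experimental support, 345 (90.8%) reached 5-fold. Counted by gene, the strongest peak reached 5-fold in 364 of 454 lincRNA genes (80.2%, 76.3 to 83.6) and in 43.4% of protein-coding genes with a peak.

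**Figure D1:**
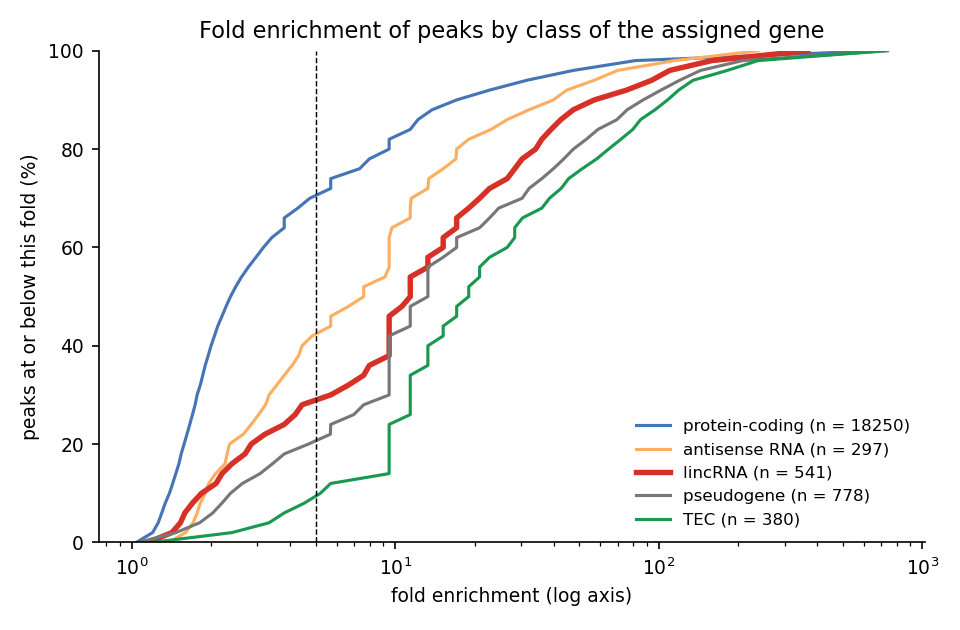
Cumulative share of peaks (%, vertical axis) at or below each fold enrichment (horizontal log axis), with 1 line per class of the assigned gene and a dashed line at 5-fold. To the right of the dashed line lie 70.6% of lincRNA peaks and 29.5% of protein-coding peaks.

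Significance did not follow the same order. A p under 0.001 was reached by 296 lincRNA peaks (54.7%, 50.5 to 58.9), against 61.5% of all peaks and 62.3% of protein-coding peaks. The median log10 p was -3.33 in lincRNA peaks and -4.10 in all peaks. Both criteria were met by 223 lincRNA peaks (41.2%, 37.1 to 45.4) and by 3941 of all 20727 peaks. These 223 had a median fold enrichment of 32.2 and a median of 1082 exonic nt. Of the 382 peaks at 5-fold or more, 159 (41.6%) did not reach p under 0.001, and their median fold enrichment was 9.48. The 73 peaks under 5-fold with p under 0.001 were short, with a median of 198 exonic nt in genes of 3235 nt, and their median fold enrichment was 2.11.

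The extent of a peak set lincRNA genes apart from protein-coding genes. Extent is given here as the share of the exonic length of the gene between the first and last base of the peak, since the list does not say which exons inside the span were part of the peak. In 231 of 541 lincRNA peaks (42.7%, 38.6 to 46.9) it was at least 90%, against 4.28% of protein-coding peaks and 9.83% of all peaks with a gene model. Antisense peaks had 19.9%, pseudogene peaks 61.6% and TEC peaks 67.1%. In 213 lincRNA peaks (39.4%) the peak began and ended on the very ends of the annotated gene. A peak spanned more than 1 exon of the longest transcript in 277 cases (51.2%) and at least 10 kb of the genome in 125 (23.1%). The other large group was narrow, with 136 peaks (25.1%, 21.7 to 29.0) covering under 10% of the exonic length, against 72.9% of protein-coding peaks.

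**Figure D2:**
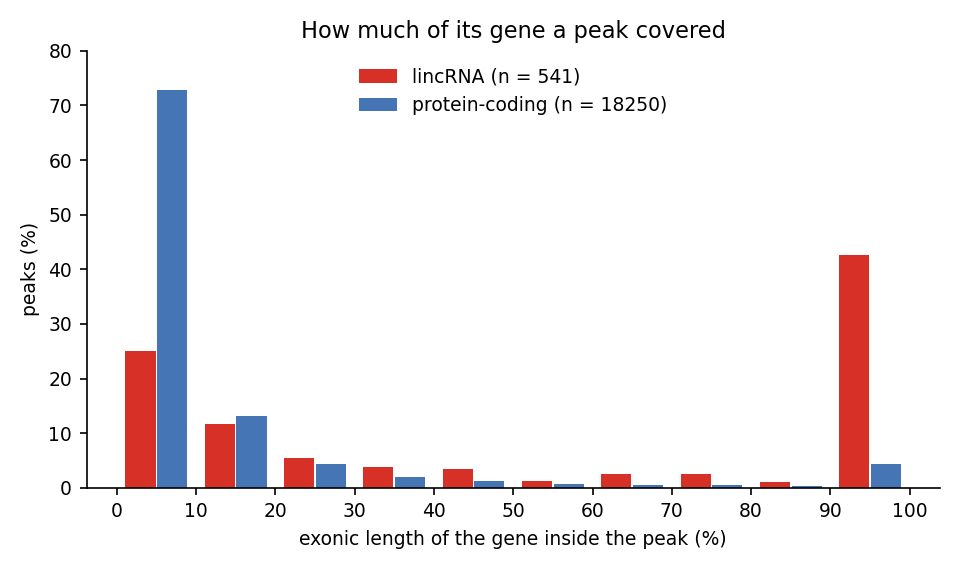
Share of peaks (%, vertical axis) by the percentage of the exonic length of the assigned gene inside the peak (horizontal axis, in steps of 10%), for lincRNA genes in red and protein-coding genes in blue. The lincRNA peaks pile up at both ends, with 25.1% under 10% and 42.7% at 90% or more, whereas 72.9% of protein-coding peaks are in the first step.

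Extent and fold enrichment moved together within the lincRNAs. The 231 peaks over at least 90% of their gene had a median fold enrichment of 22.8 (interquartile range 13.3 to 42.7), and 225 of them (97.4%) reached 5-fold. The 174 peaks over 10 to under 90% had a median of 9.48 with 120 (69.0%) at 5-fold. The 136 peaks under 10% had a median of 2.83 (1.72 to 5.81) with 37 (27.2%, 20.4 to 35.2) at 5-fold. Protein-coding peaks showed the same steps, with 91.7%, 40.1% and 22.6% at 5-fold. Within the narrowest class the lincRNA and protein-coding shares were thus 27.2% and 22.6%, and in the widest 97.4% and 91.7%. In the middle class they were 69.0% (61.7 to 75.4) and 40.1% (38.6 to 41.6).

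Fold enrichments of lincRNA peaks repeated a small set of values. Of the 260 lincRNA peaks between 5-fold and 30-fold, 230 (88.5%) were whole multiples of 1.897 within rounding (0.005 below 10 and 0.05 above), as were 78.4% of all such peaks. The value 1.897 was picked from these data as the step that fitted the most peaks. Over the steps tried, the median share of lincRNA peaks was 0%. The same pairs of fold enrichment and log10 p recurred. The pair of 9.48-fold and log10 p -1.69 was held by 49 lincRNA peaks in 47 genes and by 845 peaks of the list, although the exonic length of these lincRNA peaks ran from 37 to 8789 nt. The next pair, 11.4 with -2.09, was held by 34 lincRNA peaks and 532 peaks in all. The 6 commonest pairs made up 144 lincRNA peaks (26.6%). Among lincRNA peaks over at least 90% of their gene and between 9-fold and 60-fold, 169 of 182 (92.9%) held the pair that was commonest in the whole list at their fold enrichment. The same held for 64 of 89 (71.9%) covering 10 to under 90% of the gene and for 15 of 19 (78.9%) covering less. The part of read depth in these values was not tested, since no read counts stand in the list.

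**Figure D3:**
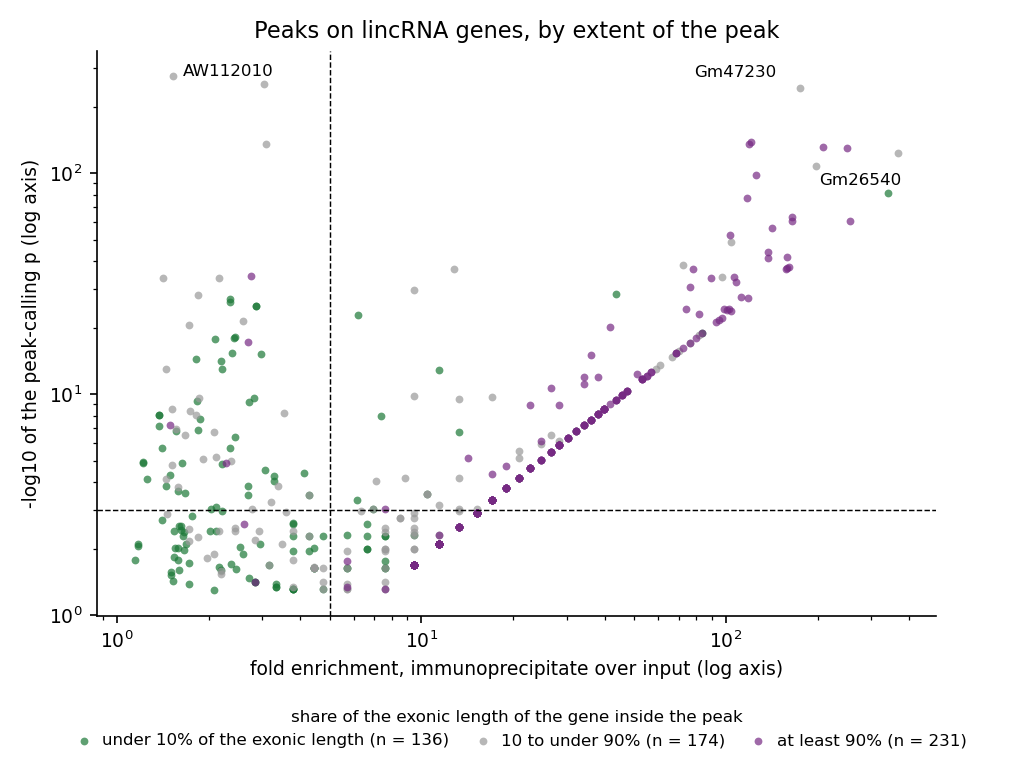
Fold enrichment (horizontal log axis) against -log10 of the peak-calling p (vertical log axis) for the 541 lincRNA peaks, coloured by the share of the exonic length of the gene inside the peak, with dashed lines at the thresholds for fold enrichment and significance. Most peaks over at least 90% of their gene line up along a single curve from about 9-fold to 60-fold, as do most narrower peaks in that range. Higher up, wide peaks of like fold enrichment can differ in p, as Gm40518 (118-fold, log10 p -27.1) and Gm10062 (121-fold, log10 p -138). Peaks under 10% lie mostly at low fold enrichment.

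Gene length was examined because lincRNA genes are shorter. The 454 lincRNA genes with a peak had a median of 1658 exonic nt (interquartile range 780 to 2924), and the 5400 without a peak 998 nt (581 to 1841). In genes of at most 1000 exonic nt, 75.7% of lincRNA peaks and 27.8% of protein-coding peaks reached 5-fold. From 1001 to 2000 nt the shares were 73.5% and 21.9%, and from 2001 to 4000 nt they were 78.7% and 22.6%. Above 4000 nt they were 48.6% (39.3 to 58.0) of 107 lincRNA peaks and 33.8% (33.0 to 34.7) of 11126 protein-coding peaks. In the longest lincRNA genes 16.8% of peaks covered at least 90% of the gene, against 62.2% in the shortest.

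A peak was found in 454 of 5854 annotated lincRNA genes (7.76%, 7.10 to 8.47), against 46.3% of protein-coding, 8.25% of antisense and 11.2% of TEC genes. Most of the lincRNA genes, 405 (89.2%), had 1 peak, and 53.3% of protein-coding genes with a peak did. These single peaks had a median fold enrichment of 15.2, and 225 of them (55.6%) covered at least 90% of the gene. The 49 genes with more peaks held 136, with a median fold enrichment of 2.85, and 6 of these (4.41%) covered as much. Their median exonic length was 2942 nt. Some sites were listed more than once. Merging overlapping peaks of a gene left 512 sites, of which 27 in 20 genes had been called more than once. In 16 of them the calls began and ended within 30 nt of each other, and the fold enrichments of such calls differed by a median ratio of 1.01 and at most 1.18.

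The 5 highest fold enrichments were in peaks assigned to Gm26540, Ino80dos, Gm34574, Gm35202 and Gm47403. Gm26540 (ENSMUSG00000097505) had the highest, 368 (log10 p -123), in a peak of 1158 exonic nt at chr6:148988701-148991279. All of these nt also lay in an exon of Dennd5b, a protein-coding gene on the opposite strand, and the authors' label was 3' UTR. A peak assigned to Ino80dos (ENSMUSG00000084799) was enriched 341-fold (log10 p -81.3) at chr1:63117358-63118498. It touched no exon of Ino80dos, and its 1141 nt lay in the exon of Gm20342, a lincRNA gene on the same strand. Another Ino80dos peak, at 83.4-fold, lay in Gm20342 in the same way. Both lay inside the span of a peak assigned to Gm20342 itself, which was enriched only 2.84-fold (log10 p -1.42). Gm34574 (ENSMUSG00000112805) reached 256 (log10 p -60.6, chr10:99216442-99228906), Gm35202 (ENSMUSG00000085668) reached 250 (log10 p -130, chr2:35503531-35506090) and Gm47403 (ENSMUSG00000111806) reached 208 (log10 p -132, chr9:89550698-89560384). Each of these last peaks held the whole exonic length of its gene over all transcripts, which was 2312, 712 and 2728 nt. The longest transcripts of these genes had 3, 2 and 3 exons. No coding gene lay within 18 kb of these genes. The nearest was Poc1b, 18368 nt from Gm34574.

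The lowest p-values fell on a different set. AW112010 (ENSMUSG00000075010), an interferon-inducible transcript of immune cells, had the lowest log10 p, -274, in a peak enriched 1.53-fold. This peak covered 326 of its 804 exonic nt in 1 exon, at chr19:11047617-11047942, and its centre was 608 nt from the 5' end of the longest transcript. A further AW112010 peak (1.42-fold, log10 p -33.6) covered the 5' part of the gene. Both are among the 61 lincRNA peaks (11.3%) enriched under 2-fold. Gm17275 (ENSMUSG00000097347) had a log10 p of -252 at 3.05-fold, and Gm26669 (ENSMUSG00000097417) had -136 at 3.08-fold. Both lay wholly in exons of coding genes on the opposite strand, H3f3a, which encodes the histone variant H3.3, and Zfp36l1, which encodes an RNA-binding protein that promotes mRNA decay. Gm47230 (ENSMUSG00000111378) had a log10 p of -242 at 175-fold over 3642 of its 5045 exonic nt. It lay 17731 nt from Cxcr5, which encodes a chemokine receptor. Gm10062 (ENSMUSG00000059244), a gene with a single exon, had -138 at 121-fold over 1467 of 1477 nt, in a site that was called again at 119-fold. All 1467 nt also lay in an exon of Gm43972, a lincRNA gene on the opposite strand.

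The 157 peaks of at most 300 exonic nt whose exonic part touched no exon of another gene had a median fold enrichment of 3.58. Of these, 53 (33.8%, 26.8 to 41.5) reached 5-fold. The lowest log10 p among the 157 was -22.8 in Tmem250-ps, at a fold enrichment of 6.19 over 210 nt. Gm10076 followed with -21.4 and 2.6, Gm36723 with -17.7 and 2.1, Lockd with -15.4 and 2.38, and Malat1 with -15.2 and 2.98. Of these 5 peaks, chosen by their log10 p, only that in Tmem250-ps was above 5-fold. RefSeq lists Tmem250-ps as protein-coding and Gm10076 as a pseudogene.

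Peaks of well-known lincRNAs had other values than the bulk of the class. Lists of nuclear and chromatin lncRNAs, snoRNA hosts, microRNA hosts and immune lncRNAs held 31 genes of the type lincRNA, of which 18 had 44 peaks. Of these peaks 12 (27.3%, 16.3 to 41.8) reached 5-fold, against 370 of the other 497 lincRNA peaks (74.4%, 70.4 to 78.1). A p under 0.001 was reached by 27 (61.4%) and by 54.1% of the others. Only 1 of the 44 covered at least 90% of its gene, against 46.3% of the others. Of the 44 peaks, 11 were in Neat1, mostly as sites called in pairs, and 7 in Lockd. The shares therefore weigh these genes heavily, and shares by gene or at equal gene length are not given. In the nuclear and chromatin list 9 of 13 genes had 26 peaks with a median fold enrichment of 2.21, and Xist, Mirg, H19 and Miat had none.

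Neat1, the scaffold of nuclear paraspeckles, had the most peaks of any lincRNA gene. It had 11, all with p under 0.001. Of these, 10 made up 5 sites called in pairs in the first 3178 nt of the 20771-nt transcript. Their fold enrichments ran from 1.22 to 2.36, and the lowest log10 p, -27, was at the site from nt 810 to 960. Both calls of that site also touched an exon of Gm27505, a gene of the type misc_RNA on the same strand. The remaining Neat1 peak, from nt 10071 to 10910, was alone in the middle of the transcript and was enriched 20.9-fold (log10 p -4.18). Malat1, a nuclear-speckle RNA encoded near Neat1 on chromosome 19, had 1 peak from nt 3177 to 3357 of 6983. The Norad gene 2900097C17Rik, whose RNA binds PUMILIO proteins, had a peak at each end of its 4915 nt. The 3' peak was enriched 1.82-fold (log10 p -14.5) and the 5' peak 17.1-fold (log10 p -3.33). The Cyrano gene 1700020I14Rik, whose RNA directs the decay of a microRNA, had 4 peaks from 1.56-fold to 1.88-fold, of which 2 lay in the first 834 of 8300 nt and 1 at the 3' end.

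**Figure D4:**
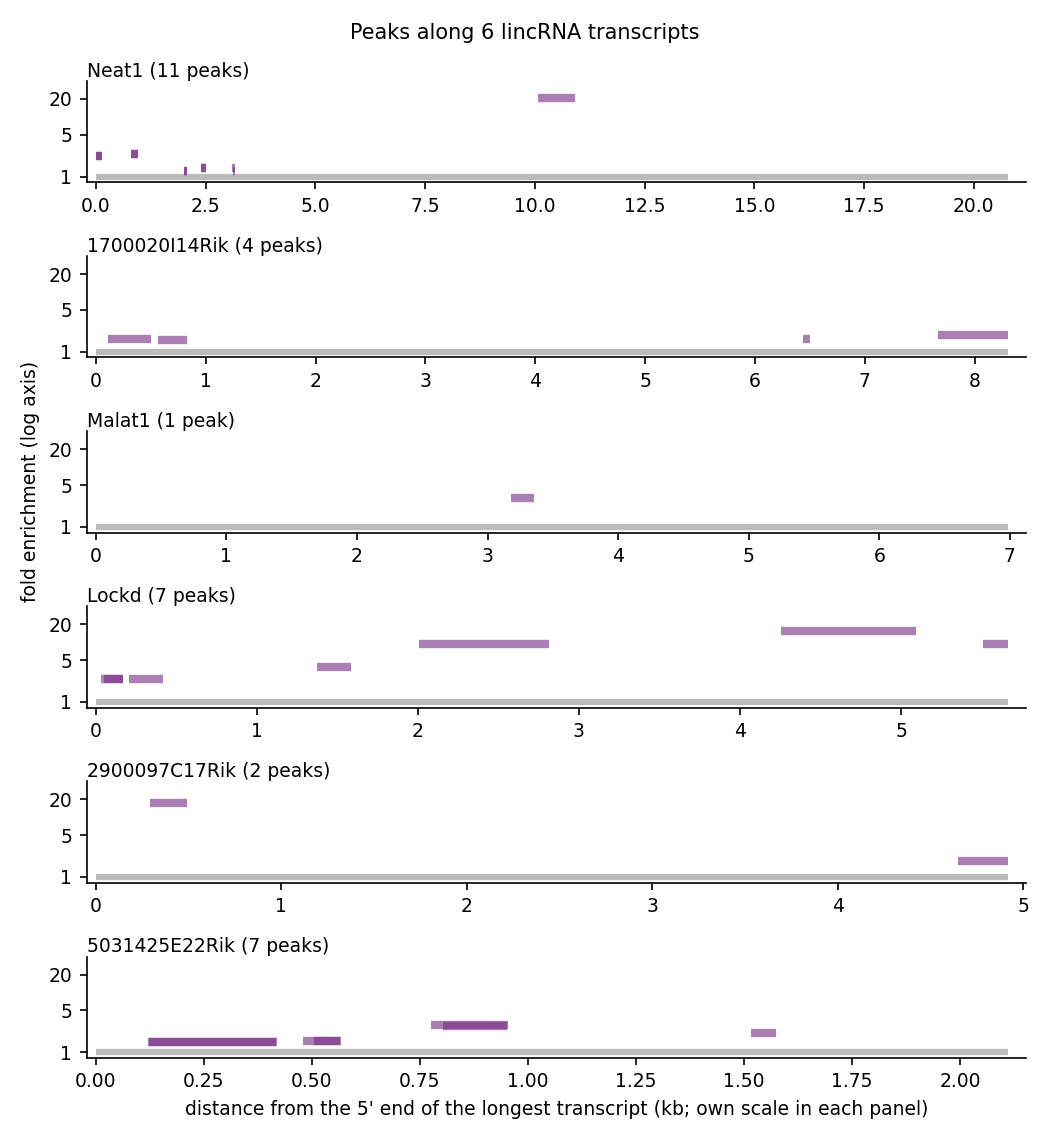
Peaks (purple bars, from first to last exonic nt) at their fold enrichment (vertical log axis) along the longest transcript of 6 lincRNA genes (grey line, drawn at 1), by distance from the 5' end in kb with an own scale in each panel. The Neat1 peaks are crowded in the first 3178 nt except for the peak at 20.9-fold, and 1 of the 8 peaks of 5031425E22Rik is left out because it touches no exon of that transcript.

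5031425E22Rik, which lies 172 nt from Kmt2e on the opposite strand, had 8 peaks. Of these, 7 lay on the longest transcript with fold enrichments from 1.45 to 2.81, and 1 in other exons had 10.4. Lockd, which lies 3579 nt from the cell cycle inhibitor gene Cdkn1b, had 7 peaks. The 3 nearest the 5' end had fold enrichments from 2.38 to 2.45 and log10 p from -18.1 to -15.4, and 2 of them were overlapping calls of a site that also touched an exon of Gm44238, a lincRNA gene on the opposite strand. The 4 further along had 3.79, 9.48, 15.2 and 9.48 with log10 p of -2.28, -1.69, -2.91 and -1.69, so that in Lockd the higher fold enrichments had the weaker p.

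Genes of the X inactivation centre and imprinted loci also had peaks. Ftx had 4 with fold enrichments from 2.71 to 7.59 and Jpx had 1 at 7.59, and none of these 5 reached p under 0.001. Meg3, a maternally expressed imprinted RNA, had a peak of 39.8-fold with a log10 p of -8.56 over 24.7% of its exonic length. That peak also touched exons of Gm27300 and Mir1906-1 on the same strand. Pvt1, a neighbour of Myc, had 1 peak of 9.48-fold with a log10 p of -1.69, the commonest pair described above. Lncpint had 1 peak of 2.02-fold. Of the snoRNA hosts of this type 5 of 6 had 1 peak each. The fold enrichments were 1.54 in Snhg12, 1.92 in Snhg6, 2.70 in Epb41l4aos, 6.16 in Snhg20 and 9.48 in Snhg10. Epb41l4aos was the listed gene whose peak covered at least 90% of it (93.3%). In the microRNA host list 1 of 7 genes had peaks, Mirt1, with 3 from 1.59-fold to 7.59-fold. Whether Mirt1 itself hosts a microRNA was not checked. Mir155hg, Mir17hg, Mir142hg, Mir670hg, Mir124a-1hg and Mir9-3hg had no peak. The 7.59-fold peak touched no exon of Mirt1. The peaks at 1.6-fold and 1.59-fold lay wholly in exons of 4833407H14Rik as well, a lincRNA gene on the opposite strand. In the immune list, besides AW112010 and Lockd, Gm14005 (Morrbid, an RNA that limits expression of the neighbouring Bcl2l11) had 1 peak of 2.45-fold with a log10 p of -6.38, and Ifngas1 and Ptgs2os2 had none.

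Some peaks could belong to another gene. Overlap was counted only on the part of a peak within exons of its assigned gene, or on the whole peak where it touched none. Exons of other genes elsewhere in the span of a peak were not counted, so the counts are lower bounds for whole spans. An exon of another gene was touched by 88 of 541 lincRNA peaks (16.3%, 13.4 to 19.6), close to the 15.6% of all peaks and the 15.4% of protein-coding peaks. The other gene was most often another lincRNA gene (45 peaks). A protein-coding exon was touched by 23 (4.25%, 2.85 to 6.30), against 9.37% of all peaks and 113 of 297 antisense peaks, and in all 23 the coding gene was on the opposite strand. Whether the libraries kept strand is not given in the sources used here, and without strand the reads of such pairs cannot be told apart. The 23 peaks had a median fold enrichment of 3.08, with 9 (39.1%) at 5-fold and 17 (73.9%) at p under 0.001, and the other 518 had a median of 11.4, with 373 at 5-fold and 53.9% at p under 0.001. Of the 25 lincRNA peaks labelled 3' UTR or 5' UTR by the authors, 19 touched a coding exon. Chosen after their values were seen, Gm42418 with 5 peaks and AY036118 with 3, from 1.15-fold to 3.29-fold, overlapped an annotated ribosomal RNA gene on chromosome 17, so that these reads may belong to either gene.

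The lincRNA genes with a peak lay nearer to coding genes than lincRNA genes in general. Of the 454, 299 (65.9%, 61.4 to 70.1) were over 5 kb from any protein-coding gene, against 78.2% of all 5854. A start within 5 kb of the start of a coding gene on the other strand was found for 52 (11.5%, 8.84 to 14.7), against 5.96%. A place within 5 kb after the end of a coding gene on the same strand was found for 22 (4.85%, 3.22 to 7.23), against 2.46%. Of the genes with a peak, 279 could be matched to RefSeq by symbol and chromosome, and 263 of these (94.3%) are noncoding RNA genes there and 12 are protein-coding. By chromosome, the share of lincRNA genes with a peak was highest on chromosome 2 (12.3%) and lowest on Y (8 of 549, 1.46%). Of the 8 genes on Y, 7 had peaks covering the whole gene and 8 had fold enrichments from 6.95 to 37.9. Some of them match in span and exonic length, such as Gm28210 and Gm29042 with 166 exonic nt each. Whether these are copies that share reads was not tested.

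The position of narrow peaks along the transcript differed from that in mRNAs. For the 240 lincRNA peaks that covered under 50% of the longest transcript, with the transcript cut into 3 equal parts from 5' to 3', 49.6% of centres lay in the first part (43.3 to 55.9), 18.8% in the middle part and 31.7% in the last part (26.1 to 37.8). For 13883 protein-coding peaks the shares were 28.9%, 19.6% and 51.5%. The first part held 47.1% of the lincRNA peaks at 5-fold or more and 51.5% of those below. It held 31 of 62 peaks in transcripts with a single exon and 88 of 178 in those with more. With 1 peak per gene, the one with the lowest log10 p, 44.3% (37.1 to 51.7) lay in the first part and 34.5% in the last. Among the 186 peaks touching no exon of another gene the shares were 41.4% (34.6 to 48.6) and 37.1% (30.5 to 44.2), whose intervals overlap. Among the 107 peaks with p under 0.001 they were 58.9% and 22.4%. In transcripts with more than 1 exon, the first exon was touched by 47.2% and the last exon by 60.1% of 178 peaks.

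**Figure D5:**
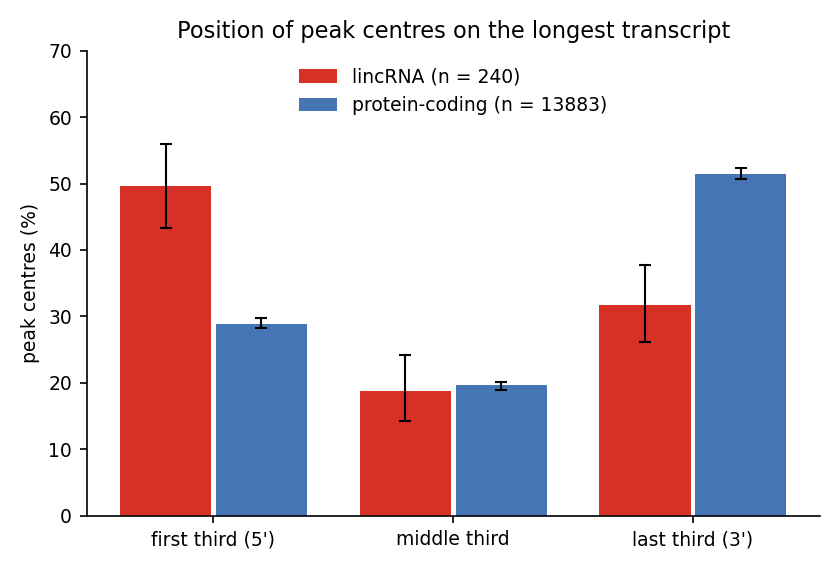
Share of peak centres (%, vertical axis) in each of 3 equal parts of the longest transcript from 5' to 3', for lincRNA peaks (red) and protein-coding peaks (blue) that covered under 50% of it, with 95% Wilson intervals as bars. The lincRNA share is highest in the first part (49.6%) and the protein-coding share in the last (51.5%).

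DRACH matches had nearly the same density inside and outside the lincRNA peaks, but the sequence inside and outside came mostly from different genes. There were 21.7 per kb on the strand of the gene in 536 peaks, 20.2 on the other strand, and 20.8 in the exonic sequence of genes with a peak outside peaks. Peaks over at least 90% of the gene held 420139 of the 566558 nt inside peaks. Their genes gave only 660 of the 481383 nt outside. These values therefore cannot show whether matches are denser under a peak than elsewhere in its gene. For the stricter GGACH the values were 3.18, 2.67 and 3.10. Peaks under 5-fold had 21.2 DRACH matches per kb against 20.7 outside, and peaks covering under 10% of the gene had 18.3 against 20.6. At equal length, 98.0% of the middle 200 nt of 394 peaks held a DRACH match, against 98.3% of 40760 windows of 200 nt tiled over all annotated lincRNA exons. Nearly every window of this length holds a match, so these shares could not show a higher density in peaks. For GGACH the shares were 52.3% (47.4 to 57.2) and 47.3%.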

How the data were processed

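The 2 immunoprecipitate and 2 input libraries were sequenced and processed by the authors, who trimmed the reads, aligned them with HISAT2, called peaks with exomePeak and assigned peaks to genes with ChIPseeker. The deposited list gives for each peak a fold enrichment, which is a ratio of immunoprecipitate to input, and a score, which is the unadjusted peak-calling p on the log10 scale. How the replicates were combined is not given in the sources used here. The list has 0 columns with a value per library, so depth is unknown and no test between conditions could be made. After 24 repeated rows were dropped, peaks were joined by gene identifier to GENCODE M21, and sequence was read from GRCm38. Coordinates are counted from 1. Overlaps count 1 base or more. Overlap with other genes was counted only on the part of a peak within exons of its assigned gene, or on the whole peak where it touched none. A peak was placed on the longest transcript by the middle of its exonic part. The placement, motif and interval functions were tested on simulated data (Python 3 with pandas, numpy and scipy).

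Named genes are members of the 4 lncRNA lists with a peak, the 5 highest fold enrichments, the 5 lowest log10 p, the 3 genes with the most peaks and the 5 lowest log10 p among peaks of at most 300 exonic nt touching no other gene's exon. The members, lists and rule were chosen with earlier results of these data known.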

Additional observations from a re-analysis of the deposited data

How the results depend on the processing

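Of 37 alternatives over 9 results, 17 left the value within its interval or, for counts, within 1.5 times, and 5 of the 37 were chosen after seeing the data. At p under 0.001 296 peaks and 257 genes were left. Their median fold enrichment was then 24.7, 75.3% of peaks reached 5-fold, 53.7% covered at least 90% of the gene, and 22.4% of centres lay in the last of 3 equal parts of the transcript. The median fold enrichment was 13.3 for the strongest peak of each gene, 4.43 in genes of over 4000 exonic nt and 2.83 in peaks covering under 10% of the gene. The share past the fold threshold was 78.9% at 3-fold, 52.5% at 10-fold, 78.2% with 1 peak per gene and 48.6% in genes of over 4000 exonic nt. The share past the significance threshold was 77.8% at p under 0.01 and 38.8% at 0.00001. The share of wide peaks was 50.3% when covering 50% of the gene was enough. Coding exons on the same strand were touched by the exonic part of 0% of peaks. When all peaks were placed, 15.8% of centres lay in the last part. Motif density was 3.18 per kb for GGACH and 21.2 for DRACH in peaks under 5-fold. No paired analysis was possible because the list gives no value per library, and leaving out a replicate could not be run for the same reason. Depth limits the precision of every value, and it is unknown here.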

Other observations

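Of the lincRNA genes that RefSeq lists as protein-coding, A530021J07Rik and EU599041 had the highest fold enrichments. Each had 1 peak over its whole exonic length, enriched 137-fold with a log10 p of -43.9 and -41.2. The peak of A530021J07Rik also touched 96 nt of an exon of 5930435M05Rik, a lincRNA gene on the opposite strand. 1810058I24Rik had a narrower peak (20.5% of the gene) at 1.84-fold with a log10 p of -28. Only 6 peaks over at least 90% of a lincRNA gene were under 5-fold. The lowest p among these was in Gm39090, at 2.75-fold and a log10 p of -34.3, and the lowest fold enrichment was 1.49 in Gm14010 (log10 p -7.24). The Gm39090 peak spanned 39698 nt and was labelled 3' UTR by the authors, and its gene overlapped the coding gene Bcl7c on the opposite strand. Of the 6, the peaks of 4930412M03Rik and Gm20342 also had UTR labels. These genes were chosen after their values were seen.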
